A study of Caenorhabditis elegans with 14 samples.

Results

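The genes described here are those of *C. elegans* whose symbols begin with *nas-* (nematode astacin), *zmp-* (zinc matrix metalloproteinase), *adt-* (ADAMTS), *nep-* (neprilysin) or *try-* (trypsin-like). The values list 73 such genes, 36 of *nas*, 25 of *nep*, 9 of *try*, 2 of *adt* and 1 of *zmp*, among 41560 gene symbols in all. Of these 73 genes, 24 had a mean level of at least 1 FPKM over the 7 libraries, and these 24 are the proteases reported below: 10 *nas*, 8 *nep*, 4 *try*, 1 *adt* and 1 *zmp* gene. FPKM is a number of sequenced fragments scaled for transcript length and library size, and the values of a gene's transcript entries were added up. The name of the set, secreted proteases, comes from the gene families and was not measured. Neprilysins are mostly held in the cell membrane with the active site facing outwards.

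The study compared *spe-9*(*hc88*) animals, which are sterile at the restrictive temperature, with the double mutants *mir-60*(*n4947*);*spe-9*(*hc88*), which also lack the microRNA gene *mir-60*, so that all animals carried the *spe-9* mutation. Whole animals were grown at 23.5 °C, and Day 0 is the young adult stage reached 68 hours after egg preparation, without treatment. From Day 0, other animals were kept on 5 mM paraquat, an herbicide that generates superoxide, and on 325 µM FUDR, which stops the growth of progeny, until Day 7 (both strains) or Day 10 (*mir-60;spe-9* only). Day 7 is the median survival time of the *spe-9* strain and Day 10 that of the double mutants, so only survivors were sampled. There were 2 libraries of each strain at Day 0 and 1 library for each later group, and each library was the merge of 2 sequencing runs. In the later libraries, age, paraquat and FUDR changed together and cannot be told apart. Library values are given below in the order *spe-9* Day 7, double mutant Day 7 and double mutant Day 10 where 3 later values stand together.

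Astacins, matrix metalloproteinases and ADAMTS enzymes use a zinc ion in the active site to cut proteins outside the cell, such as collagens and other parts of the cuticle and the basement membrane. Neprilysins are zinc peptidases that cut short peptides, among them neuropeptides. Trypsin-like enzymes cut proteins with a serine in the active site and are made as inactive precursors. In *C. elegans*, astacins are known from hatching, from molting, in which the old cuticle is shed, and from the pharynx, the feeding organ.

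The levels of most of the set were low. Of the 24 proteases, 18 had a mean of at least 2 FPKM, 11 of at least 5, 7 of at least 10 and 2 of at least 50. Of the 13745 genes with a mean of at least 1 FPKM, 75.4% had a lower mean than *try-10*, the highest of the set, and 2.33% a lower mean than *nas-31*, the lowest. The 3 highest *nas* genes were *nas-11* (15.2), *nas-9* (14.3) and *nas-37* (8.995), the 3 highest *nep* genes *nep-17* (52.3), *nep-1* (40.9) and *nep-26* (8.68), and the 3 highest *try* genes *try-10* (66.8), *try-1* (43.8) and *try-3* (3.03), all as mean FPKM. The median over the listed genes was 0.331 FPKM for *nas*, 0.246 for *nep* and 0.599 for *try*. Thus the typical gene of these families was under the minimum in whole adults.

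**Figure D1:**
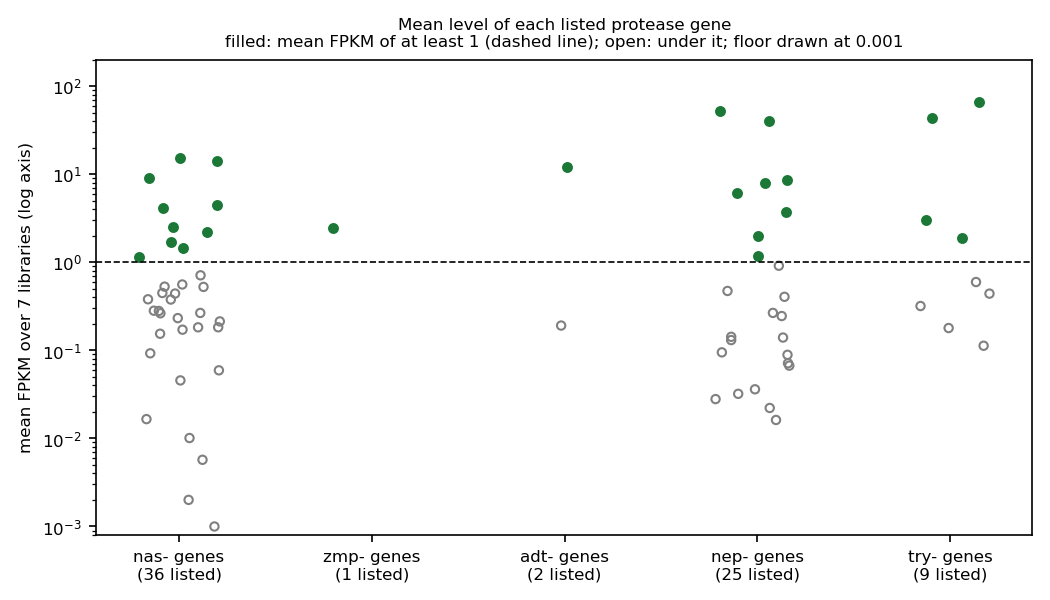
Mean FPKM over the 7 libraries (log axis) of each of the 73 listed genes, grouped by symbol; filled points are the 24 genes with a mean of at least 1, the dashed line marks that minimum, and the lowest gene is drawn at 0.001. The *nas* and *nep* families reach far below the minimum, with family medians of 0.331 and 0.246.

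Just inside the minimum were *nas-31* with a mean of 1.15 and *nep-4* with 1.19, and just outside it *nep-18* with 0.917 and *nas-36*, an astacin needed for molting, with 0.714. Under the minimum, 17 of the 49 genes had a mean below 0.1, and 5 reached 1 FPKM in at least 1 library: *nep-18*, *try-9*, *nas-14*, *nas-10* and *nas-15*. Of these, *nas-15* had 0.0464 and 0.04901 in *spe-9* and 0.0673 and 0.0252 in the double mutants at Day 0 against 1.13, 0.875 and 0.909 in the later libraries. Its later values all lay above its Day 0 values, but its mean of 0.443 kept it out of the set. *nas-7*, which acts in the pharyngeal grinder, *nas-38*, known from the sleep-like state around molting, and *adt-1*, needed for the rays of the male tail, had means of 0.527, 0.183 and 0.192. 

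The position of the genes was not used to choose them. The 24 proteases lie on chromosomes V (7), II (6), X (6), IV (3), I (1) and III (1). Of the 25 listed *nep* genes 18 lie on chromosome II, and 5 of the 8 that reached the minimum are among them. Listed genes within 50 kb of each other formed 4 groups, and in none did more than 1 gene reach the minimum. The largest holds 8 *nep* genes on chromosome II (WS220) from 3388283 to 3425535, of which *nep-11* at the right end had a mean of 3.75 FPKM and the other 7 had means from 0.0162 to 0.246. On chromosome V, *nas-20* had a mean of 4.47, while its neighbours *nas-21* and *nas-22* had 0.183 and 0.233, and the 4 genes *nas-16* to *nas-19* lay between 0.00201 and 0.0166.

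Across all genes with a mean of at least 1 FPKM, the Day 0 libraries correlated with each other at 0.952 to 0.9697 (log2 scale, across genes), while double mutant Day 7 correlated with them at 0.758 to 0.765 and *spe-9* Day 7 at 0.827 to 0.843. The values list 117 genes at exactly 0 in both later double mutant libraries that were at 1 FPKM or more in each other library. An exact 0 may be a failed estimate, and 0 of the 24 proteases were listed at 0 in any library. *mir-60* itself was listed at 0 in all 7 libraries, so it does not check the strain labels. Depth is not given in the values. In single-entry genes of 2000 to 2400 bases the smallest value above 0.0001 was 0.0040 to 0.0085 FPKM, so 1 FPKM in such a gene was 118 to 250 times the smallest value recorded.

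Then the 3 later libraries were compared with the 4 at Day 0, to ask how these genes differed in surviving animals after 7 or 10 days on paraquat and FUDR. Of the 24 proteases, 9 were higher and 8 were lower in the later libraries (limma on log2(FPKM + 0.5) with strain as a covariate, Benjamini-Hochberg adjusted p under 0.05 over 13745 genes), and 7 were not called. These are 37.5% and 33.3% of the set, against 30.9% of all genes called higher and 27.6% called lower, so the share of called genes was near that of all genes. The median log2 fold change was 0.05 over the 24 proteases and 0.00 over all genes tested. The fit takes the 3 later libraries as 1 group. Differences between the strains in their change, and between Day 7 and Day 10, stay in its residual spread. The smallest p of an exact two-sided permutation test of 3 libraries against 4 is 0.0571, so the calls rest on the assumptions of the limma fit. The same 17 genes had later and Day 0 values that did not overlap, which held for 31.3% of all genes in the higher and 30.0% in the lower direction. *zmp-1*, *try-5* and *nas-8* passed the minimum only through the later libraries and *try-3* and *nep-4* only through those at Day 0, so the direction of these 5 was set by the minimum. In whole animals, fewer cells of a type and less RNA per cell cannot be told apart.

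**Figure D2:**
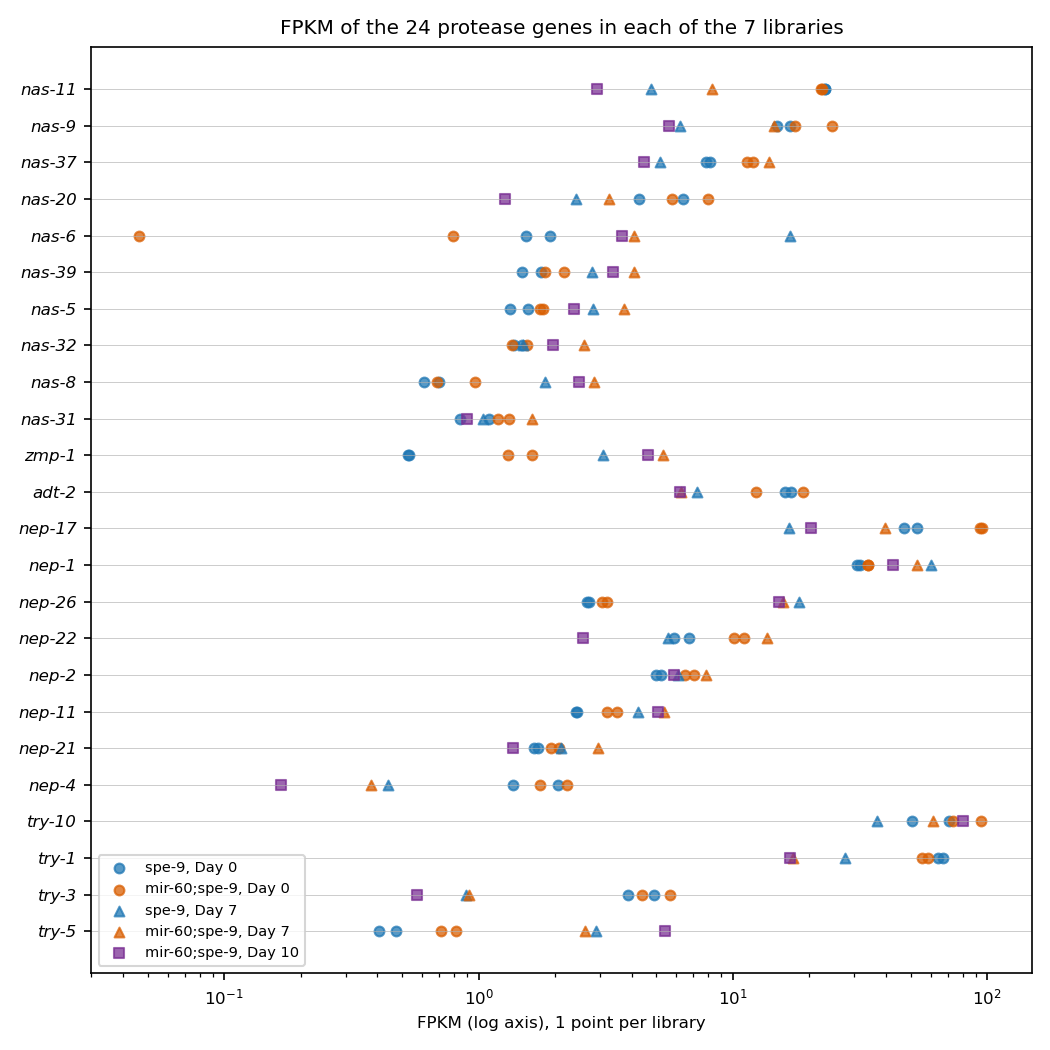
FPKM (log axis) of the 24 proteases in each of the 7 libraries, 1 point per library, ordered by family and mean level. The later points lie apart from the Day 0 points in 17 genes, to the right in 9 and to the left in 8.

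The largest rise among the astacins was that of *nas-6*, which acts in the grinder of the pharynx. *nas-6* (chromosome IV from 17486946 to 17490461) had 1.904 and 1.53 FPKM in *spe-9* and 0.792 and 0.0462 in the double mutants at Day 0, and 16.8, 4.08 and 3.65 in the later libraries. All later values were above all Day 0 values, and *spe-9* Day 7 was the highest by far. The estimated difference, on the log2(FPKM + 0.5) scale, was log2 fold change 2.61, standard error 0.34, limma adjusted p = 0.00137, and over all alternatives of the fit the log2 fold change lay between 2.18 and 3.36. Of its 2 transcript entries, the longer carried 44.04% to 53.99% of the FPKM in the later libraries.

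The other astacins that rose did so by less. *nas-8* (chromosome IV from 7115638 to 7119776) went from 0.699 and 0.609 FPKM in *spe-9* and 0.972 and 0.683 in the double mutants at Day 0 to 1.83, 2.84 and 2.48, log2 fold change 1.16, standard error 0.21, limma adjusted p = 0.00431. *nas-39*, the nearest relative of the tolloid and BMP1 proteases, which trim procollagens and growth factor inhibitors in other animals, had 1.76 and 1.48 and 2.17 and 1.83 at Day 0 against 2.78, 4.102 and 3.38 later, log2 fold change 0.71, standard error 0.17, limma adjusted p = 0.0128. In both genes double mutant Day 7 was the highest library. *nas-8* passed the minimum only through the later libraries, so its direction was set by the minimum and its p is no evidence for a rise. *nas-5* had 1.56 and 1.33 and 1.79 and 1.74 at Day 0 and 2.82, 3.75 and 2.38 later, log2 fold change 0.68, standard error 0.20, limma adjusted p = 0.02904. The call of *nas-5* was lost when any library other than double mutant Day 10 was left out, with adjusted p from 0.0637 to 0.117, and under quantile normalization (0.0642), and that of *nas-39* without the second double mutant library at Day 0 (0.0548).

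In the opposite direction, *nas-11* fell most. It lies on chromosome X from 6713539 to 6716281 and had nearly equal values in the 4 Day 0 libraries, 22.96 and 23.03 FPKM in *spe-9* and 22.2 and 22.4 in the double mutants, against 4.77, 8.26 and 2.91 later. The decrease amounted to log2 fold change -2.10, standard error 0.32, limma adjusted p = 0.00236. *nas-20* went from 6.34 and 4.29 and 7.99 and 5.75 to 2.41, 3.26 and 1.27, log2 fold change -1.29, standard error 0.33, limma adjusted p = 0.0166. *nas-9* had 14.9 and 16.7 and 17.5 and 24.6 at Day 0 and 6.17, 14.5 and 5.62 later, log2 fold change -1.20, standard error 0.32, limma adjusted p = 0.0207. The double mutant Day 7 value of *nas-9* lay just below its lowest Day 0 value, while those of the other later libraries were less than that by more than 2-fold. Without the second double mutant library, the second *spe-9* library at Day 0 or *spe-9* Day 7, the adjusted p of *nas-9* was 0.0691, 0.0528 and 0.0925, and without the first double mutant library that of *nas-20* was 0.0569.

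*nas-37*, *nas-31* and *nas-32* were not called. *nas-37*, an astacin known for the shedding of the old cuticle at molting, had 8.12 and 7.86 FPKM in *spe-9* and 12.05 and 11.4 in the double mutants at Day 0, and 5.18, 13.9 and 4.48 later. Double mutant Day 7 was its highest library and the 2 others the lowest (log2 fold change -0.55, standard error 0.36, limma adjusted p = 0.229). When double mutant Day 7 was left out, the log2 fold change of *nas-37* was -0.94 with an adjusted p of 0.0108. *nas-32* and *nas-31* had log2 fold changes of 0.32 (95% interval -0.18 to 0.83) and 0.01 (-0.57 to 0.60).

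Of the neprilysins, 3 rose, 2 fell and 3 were not called. *nep-26* (chromosome II from 10284004 to 10288853) had 2.66 and 2.72 FPKM in *spe-9* and 3.204 and 3.06 in the double mutants at Day 0, and 18.2, 15.8 and 15.1 later. These groups stood far apart with little spread in each, log2 fold change 2.30, standard error 0.13, limma adjusted p = 0.000103, the smallest adjusted p in the set. The second of its 2 entries, of 2424 bases, rose from 0.00, 1.43, 1.64 and 1.89 FPKM in the Day 0 libraries to 12.8, 11.4 and 11.7. The other, of 2314 bases, rose less, from 1.17 to 2.66 FPKM at Day 0 to 3.41 to 5.39 later. How the reads were split between entries was not tested.

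*nep-1*, a neprilysin known from pharyngeal cells and neurons and from effects on locomotion and pharyngeal pumping, had 30.9 and 31.7 FPKM in *spe-9* and 34.1 and 34.01 in the double mutants at Day 0 and 60.1, 52.8 and 42.7 later, log2 fold change 0.66, standard error 0.13, limma adjusted p = 0.00746. The 4 Day 0 values lay close together, and the lowest later value was well above them. *nep-11*, the expressed gene of the *nep* group on chromosome II, had 2.41 and 2.43 and 3.19 and 3.52 at Day 0 and 4.25, 5.37 and 5.097 later, log2 fold change 0.63, standard error 0.13, limma adjusted p = 0.00805.

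The neprilysins that fell were *nep-17* and *nep-4*. *nep-17* lies on chromosome II from 13507761 to 13516299, and its FPKM was 47.3 and 52.8 in *spe-9* and 93.7 and 95.4 in the double mutants at Day 0 against 16.7, 39.8 and 20.3 later, log2 fold change -1.65, standard error 0.23, limma adjusted p = 0.00172. The strains differed at Day 0, and within each strain every later value was below both Day 0 values. *nep-4* had 2.04 and 1.37 and 2.22 and 1.74 at Day 0 and 0.439, 0.379 and 0.168 later, log2 fold change -1.50, standard error 0.26, limma adjusted p = 0.00417. Which of the 2 fell more depended on the pseudocount, since with 0.1 in place of 0.5 the log2 fold change was -2.21 for *nep-4* and -1.67 for *nep-17*. *nep-4* passed the minimum only through the Day 0 libraries, so its direction was set by the minimum and its p is no evidence for a fall. Among those not called, *nep-2*, which is needed for olfactory plasticity, had 4.99 and 5.197 and 7.02 and 6.498 at Day 0 and 6.06, 7.804 and 5.85 later, and its 95% interval for the log2 fold change ran from -0.27 to 0.45. *nep-22* had 5.85 and 6.701 and 11.1 and 10.1 at Day 0 against 5.55, 13.6 and 2.57, with the 2 extremes both in later double mutant libraries and an interval from -1.79 to 0.76. *nep-21* stayed between 1.36 and 2.96 FPKM over the 7 libraries.

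*zmp-1* is the matrix metalloproteinase that the anchor cell of the gonad uses when it breaches the basement membrane in larvae. On chromosome III from 5926981 to 5932866, it had 0.529 and 0.531 FPKM in *spe-9* and 1.30012 and 1.63 in the double mutants at Day 0 and 3.09, 5.31 and 4.64 later, log2 fold change 1.61, standard error 0.18, limma adjusted p = 0.000827. *zmp-1* passed the minimum only through the later libraries, so its direction was set by the minimum and its p is no evidence for a rise. Within each strain the later values were above those at Day 0, and at both days *mir-60;spe-9* had the higher value. *adt-2*, an ADAMTS enzyme that affects body size and cuticle collagens, went the other way, from 16.9994 and 16.05 and 18.9 and 12.3 to 7.23, 6.24 and 6.19, log2 fold change -1.19, standard error 0.16, limma adjusted p = 0.00164. An entry of 378 bases carried 47.1% to 72.7% of the FPKM of *adt-2*. With the entry of the highest mean alone the gene was also called lower.

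Of the serine proteases, *try-1* (chromosome II from 4948255 to 4949456) had 67.3 and 63.9 FPKM in *spe-9* and 55.5 and 58.4 in the double mutants at Day 0 and 27.7, 17.2 and 16.8 later, log2 fold change -1.52, standard error 0.12, limma adjusted p = 0.000271. The 2 double mutant values were the lowest of the later ones. *try-3* fell from 4.895 and 3.87 and 5.68 and 4.41 to 0.889, 0.919 and 0.5703, log2 fold change -2.02, standard error 0.21, limma adjusted p = 0.0006201, and all 3 later values were under 1 FPKM. *try-5*, in males a seminal fluid protease that activates sperm, rose from 0.475 and 0.406 and 0.814 and 0.714 to 2.903, 2.62 and 5.41, log2 fold change 1.80, standard error 0.27, limma adjusted p = 0.00236, with double mutant Day 10 the highest. Of 3 male markers, *lov-1* and *pkd-2* stayed at 0.15 FPKM or less in every library, and *mab-3* was at 0.315 to 0.529 at Day 0 and at 0.967 to 1.60 later. Their part in the result was not tested. *try-3* passed the minimum only through the Day 0 libraries and *try-5* only through the later ones. The direction of both was thus set by the minimum, and their p is no evidence for it.

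*try-10* had the highest mean of the set and was not called, with 70.98 and 50.5 FPKM in *spe-9* and 94.5 and 73.6 in the double mutants at Day 0 and 37.03, 60.9 and 80.4 later (log2 fold change -0.43, standard error 0.20, limma adjusted p = 0.109). Of this level, 75.0% to 92.2% came from an entry of 174 bases. Without that entry, an alternative chosen after its values were seen, *try-10* had 17.7 and 10.5 FPKM in *spe-9*, 15.6 and 13.8 in the double mutants, and 4.69, 8.07 and 6.28 later, and its log2 fold change was -1.18 (limma adjusted p = 0.00422). The level and the call of *try-10* thus depended on 1 short entry.

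**Figure D3:**
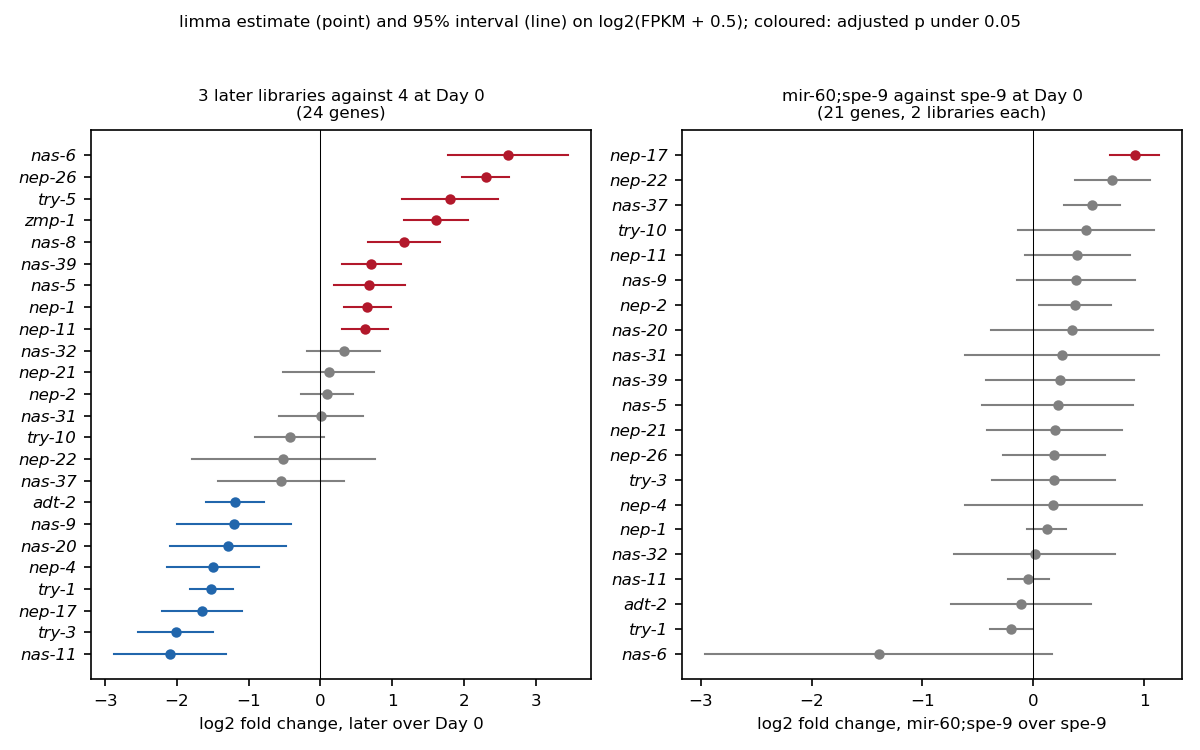
Estimated log2 fold change (points) with 95% interval (lines) from limma on log2(FPKM + 0.5), on the left for the 3 later libraries against the 4 at Day 0 (24 genes) and on the right for *mir-60;spe-9* against *spe-9* at Day 0 (21 genes); coloured points have an adjusted p under 0.05. On the left 9 genes lie on the higher and 8 on the lower side, and on the right *nep-17* is the 1 coloured gene.

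The other gene lists read from the same fit are given by their counts. Of 5 astacin and ADAMTS genes with other symbols, 2 were called, both lower, *hch-1*, the hatching enzyme (log2 fold change -1.46, limma adjusted p = 0.00727), and *mig-17*, known from gonad cell migration (-1.12, limma adjusted p = 0.0114). The procollagen C-proteinase *dpy-31*, *toh-1* and *gon-1* were not called, and the list median was -0.49. Of 11 matched protease inhibitor genes, *srp-7*, *srp-8*, *cri-2* and *mig-6* were left out because both later double mutant libraries list them at 0, and of the 5 tested, 2 were higher (*srp-2* and *srp-6*, serpin genes) and 2 lower (*srp-1* and *mlt-11*), with a median of 0.21. Of 14 basement membrane and matrix genes, 5 rose and 6 fell, and the median was -0.38. Both type IV collagen genes, *emb-9* and *let-2*, and the perlecan gene *unc-52* fell (log2 fold changes -2.25, -2.79 and -3.54), and the laminin genes *lam-1* and *lam-2* rose (1.10 and 0.81). Of 10 molting genes tested, 2 rose and 4 fell, and the median was -0.56.

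Cell type markers moved in the same comparison, and their part in the changes of the proteases was not tested. All 5 intestinal markers were lower (median log2 fold change -1.49), with a summed level of 275 to 325 FPKM at Day 0 and 79.0 to 99.5 later. Of 4 body wall muscle markers 3 were lower (median -2.43), of 3 tested hypodermal markers 1 was lower (median -0.29), of 5 germline markers 4 were lower and 1 higher (median -0.79), and of 28 tested sperm markers 7 were lower (median -1.02). The lower hypodermal marker was *col-19* (log2 fold change -7.72, limma adjusted p = 1.88e-05). *dpy-7* was left out because double mutant Day 7 lists it at 0. Its FPKM was 1.98 to 15.6 at Day 0 and at most 0.0993 later. Pharyngeal markers, of which 1 of 5 was lower, summed to 45.8 to 79.7 FPKM at Day 0 and 43.7 to 57.4 later, and neuronal markers, of which 1 of 4 was higher, to 897 to 933 and 1270 to 1502. Most of the neuronal sum was *snb-1*, the marker called higher, with 851 to 890 FPKM at Day 0 and 1223 to 1458 later. The log2 fold changes of *unc-119* (-0.06), *rab-3* (0.01) and *unc-13* (0.07) were not called, and the neuronal median was 0.04. Beside the rise of *nas-6*, the pharyngeal marker called lower was the myosin gene *myo-1* (log2 fold change -0.46, limma adjusted p = 0.0176), and the estimates of *pha-4* (-0.60), *tnc-2* (-0.22), *ceh-22* (-0.11) and *myo-2* (0.08) were not called.

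Next, the strains were compared at Day 0, to ask how they differed in these genes before any treatment. Of the 24 proteases 21 had a mean of at least 1 FPKM over the 4 Day 0 libraries and were tested, and 1 was called, *nep-17*, which was higher in the double mutants. No protease was called lower. Over all 13068 genes tested 0.559% were called higher and 0.184% lower. At an unadjusted p under 0.05 there were 5, namely *nep-17*, *nep-22*, *nas-37*, *nep-2* and, with the lower value in the double mutants, *try-1*. The smallest p of an exact two-sided permutation test of 2 libraries against 2 is 0.333, so these values rest on the variance that limma shares among genes.

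*nep-17* had an FPKM of 50.0 ± 3.88 (SD, n = 2) in *spe-9* and 94.5 ± 1.24 (SD, n = 2) in the double mutants, a difference much larger than the spread within the strains (log2 fold change 0.91, standard error 0.08, limma adjusted p = 0.0472). The call was near the threshold. Under 5 other settings the adjusted p was between 0.0841 and 0.130, and with any 1 of the 4 libraries left out between 0.123 and 0.320, while the log2 fold change stayed between 0.83 and 1.04. Both of its transcript entries were higher in each double mutant library than in each *spe-9* library.

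*nep-22* had 6.28 ± 0.6001 (SD, n = 2) in *spe-9* and 10.6 ± 0.704 (SD, n = 2) in the double mutants (log2 fold change 0.71, standard error 0.12, limma adjusted p = 0.124), and *nas-37* 7.99 ± 0.182 (SD, n = 2) and 11.7 ± 0.461 (SD, n = 2) (log2 fold change 0.52, standard error 0.09, limma adjusted p = 0.127). In both genes the strains did not overlap, and neither passed the threshold. *nep-2* (log2 fold change 0.38, standard error 0.12, limma adjusted p = 0.281) had the higher values in the double mutants and *try-1* (log2 fold change -0.20, standard error 0.07, limma adjusted p = 0.309) the lower ones. *nas-6* had the largest estimate of the set at -1.40, with a 95% interval from -2.96 to 0.17. *zmp-1* was not tested here because its Day 0 mean of 0.996 was just under the minimum; with the minimum taken over the 7 libraries, its log2 fold change was 0.93 and its limma adjusted p was 0.156.

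Of the 21 proteases, 13 had both double mutant values above both *spe-9* values and 3 had both below, 61.9% and 14.3% of those tested, against 27.1% and 24.5% of all genes tested. All 8 *nep* genes had an estimate above 0 (median 0.28), and 7 of them did not overlap. This direction depended on the scaling. With median centring, the estimate was above 0 in 16 and below 0 in 5 of the 21 proteases, and above 0 in all 8 *nep* genes. The median was then 0.13 over the proteases and -0.08 over all genes. The estimate was above 0 in 17 and below 0 in 4 of the 21 proteases without further scaling, but in 9 and 12 under quantile normalization, where 5 of the *nep* genes stayed above 0 and 3 did not, and the median over the proteases went from 0.22 to -0.03. With all genes, this median was 0.01 and -0.06. Without further scaling, the Day 0 median was also above 0 in most lists of other genes. It was 0.48 for body wall muscle, 0.42 for molting, 0.41 for intestine and 0.35 for pharynx. For basement membrane and matrix it was 0.33 and for the other astacin and ADAMTS genes 0.29. Protease inhibitors had 0.08, neurons 0.04, hypodermis 0.01 and germline -0.20. No gene of these lists was called. Sperm markers, 31 *msp* genes and 3 others, summed to 42.3 and 43.9 FPKM in *spe-9* and to 153 and 236 in the double mutants at Day 0, where 0 of 28 tested were called by limma, 28 had an unadjusted p under 0.05 and their median log2 fold change was 1.79. The *msp* genes are near-identical copies, so the level of each alone is uncertain. The part of these in the protease values was not tested.

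At Day 7 the strains could be compared only as 1 library against 1, without a replicate check and without a test. On the log2(FPKM + 0.5) scale, 4 of the 24 proteases (16.7%) were over 2-fold higher in the double mutants and 1 (4.17%) was over 2-fold lower, against 4.02% and 5.57% of 13745 genes. The 4 were *nas-37* (log2 ratio 1.34), *nep-17* (1.23), *nep-22* (1.22) and *nas-9* (1.17). Thus *nas-37*, *nep-17* and *nep-22*, the 3 genes with the lowest unadjusted p at Day 0, were above *spe-9* at both days. The 1 lower gene was *nas-6*, at 16.8 FPKM in *spe-9* against 4.08 in the double mutants (log2 ratio -1.92). In all, the double mutant library had the higher value in 17 proteases and the lower in 7, and the share over all genes was not counted. The median log2 ratio was 0.39 over the proteases and -0.01 over all genes.

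The difference between the strains in the change from Day 0 to Day 7 was fitted as an interaction term in limma, in which none of the 24 proteases passed the threshold (0 with an adjusted p under 0.05, 6 at an unadjusted p under 0.05), while 0.822% of all genes were called with a positive and 3.25% with a negative term. Nearly all of the calls over all genes were lost when genes listed at 0 in a library were left out. The share over all genes thus depended on keeping those genes, and no protease is among them. With 1 library for each strain at Day 7, the spread came from the Day 0 libraries alone. The absence of a call therefore does not show that the strains changed alike. The lowest adjusted p was that of *nas-11*, which fell by 2.16 on the log2 scale in *spe-9* and by 1.38 in the double mutants (difference of 0.78 on the log2 scale, standard error 0.11, limma adjusted p = 0.09698), and without the filter on low values it was called (limma adjusted p = 0.0451). *nas-37* was next (difference of 0.81 on the log2 scale, standard error 0.14, limma adjusted p = 0.137), with Day 7 against Day 0 log2 ratios of -0.58 in *spe-9* and 0.23 in the double mutants. *nas-32*, *nep-1*, *try-1* and *try-5* were the others with an unadjusted p under 0.05.

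Finally, the double mutants were followed from Day 7 to Day 10, again with 1 library each and no test. In this step 22 of the 24 proteases had the lower value at Day 10 and 2, *try-5* and *try-10*, the higher, without further scaling. The share over all genes was not counted, but their median log2 ratio was -0.20, so most genes were lower too. Over 2-fold lower were 5 proteases (20.8%), and 0 were over 2-fold higher, against 5.35% and 4.53% of all genes. The median log2 ratio was -0.35 over the proteases and -0.20 over all genes, and centring each library on its median moved these to -0.16 and -0.0029, a shift that all genes shared. The 5 were *nep-22* (log2 ratio -2.20), *nas-37* (-1.53), *nas-11* (-1.36), *nas-9* (-1.30) and *nas-20* (-1.08). *nep-22* fell from 13.6 FPKM, the highest of its 7 values, to 2.57, the lowest, and *nas-37* likewise from 13.9 to 4.48. *nep-17* went from 39.8 to 20.3 (log2 ratio -0.95), close to the 16.7 of *spe-9* at Day 7. *try-5* was at 5.41 after 2.62 (log2 ratio 0.92).

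**Figure D4:**
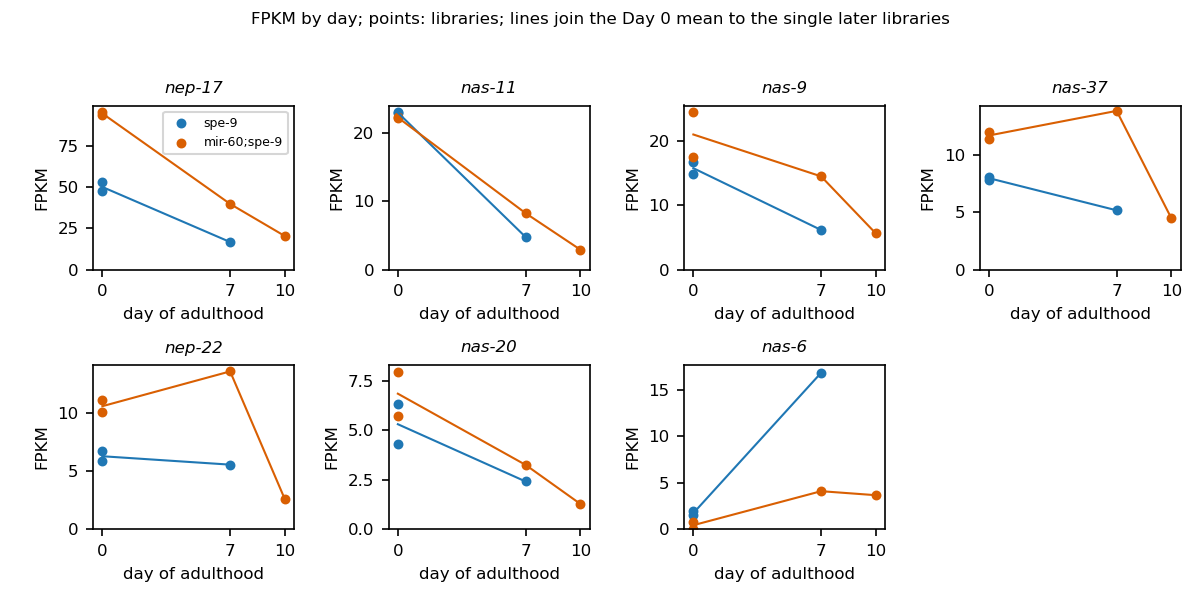
FPKM by day of adulthood for the 7 proteases past 2-fold between single libraries (*spe-9* against *mir-60;spe-9* at Day 7, or Day 7 against Day 10 in the double mutants); points are libraries and lines join the Day 0 mean of a strain to its single later libraries. *nas-37* and *nep-22* were highest in the double mutants at Day 7 and low at Day 10, and *nas-6* was highest in *spe-9* at Day 7.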

How the data were processed

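Polyadenylated RNA of whole animals was sequenced in single-end reads. The authors used TopHat 2.1.0 with Bowtie 2.1.0 and the WS220 genome and deposited FPKM per RefSeq transcript from Cufflinks 2.2.1, with the 2 sequencing runs of each library merged. No count of reads was used here. The length column holds the coding length (97.8% of the coding entries are multiples of 3). FPKM were summed per gene, and log2(FPKM + 0.5) was fitted with limma 3.58.1 in R 4.3.3 (variance trend, two-sided, Benjamini-Hochberg over all genes tested, with a mean FPKM of at least 1). Positions are those of the values, on WS220. Per the study's methods, RNA of each strain at Day 0 came from 2 independent purifications.

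Named genes are the proteases called in a fit, the 3 highest of each family, those past 2-fold between single libraries, those of known role and those next to the minimum. These members, the lists and the rule were chosen with earlier results of these data known. The fits were tested on simulated data. Alternatives covered the pseudocount, the filter, the scaling, the transcript choice, the variance trend, the block and each library left out. Those on short entries, on genes listed at 0 and all those of the interaction were added after the data were seen. The genes *timp-1* and *toh-2* matched no symbol and were not analysed here.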

Additional observations from a re-analysis of the deposited data

How the results depend on the processing

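All 17 calls of the later comparison kept their direction under every alternative run, and 13 of the 17 also kept the call, with *nas-5*, *nas-9*, *nas-20* and *nas-39* the exceptions given above. The 13 include *zmp-1*, *try-5*, *nas-8*, *try-3* and *nep-4*, whose direction was set by the minimum. The first 3 were not tested with the filter over the Day 0 libraries, and *try-3* and *nep-4* not with that over the later libraries. These filters could therefore not change their calls. With a mean FPKM of at least 10, 7 proteases were tested, of which 1 was higher and 5 were lower, and 2 were over 2-fold higher and 0 lower in the double mutants at Day 7, and 2 over 2-fold lower at Day 10. The group-means fit called 10 higher and 10 lower, adding *nas-32* (higher), *nas-37* and *nep-22* (both lower). With each library left out, 7 to 9 were called higher and 7 to 9 lower. The 1 call at Day 0 was lost (0 called) with the filter over the 7 libraries, median centring, no filter on low values, no variance trend and the transcript with the highest FPKM, and 0 were called when any 1 library was left out, which leaves 1 residual degree of freedom and the lone sample assumed to vary like the other group. The interaction gave 1 call, *nas-11*, without a filter (limma adjusted p = 0.0451), and centring moved its median over all genes from -0.06 to 0.14. From Day 7 to Day 10, 1 protease, *try-5*, was over 2-fold higher with a pseudocount of 0.1, with median centring and with quantile normalization. The numbers of the Day 0 replicates (correlation of the differences between numbers 0.076 across genes) were taken as shared numbers only. With the replicate block, 1 protease was called at Day 0, as without it. Of the estimates below the threshold, 9 in the later and 13 in the Day 0 comparison changed sign in some setting, counted over proteases and settings. The causes were not tested. Having 1 library for each later group limits the precision, and the effect of depth was not tested.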

Other observations

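The values list some relatives under sequence names, so that the symbol rule did not reach them. They were matched through RefSeq transcripts to current symbols and were chosen after their values were seen. Of the matrix metalloproteinases, *zmp-4* (listed as W09D12.1) had 28.8 and 31.4 FPKM in *spe-9* and 30.3 and 37.9 in the double mutants at Day 0, and 9.82, 20.97 and 10.2 in *spe-9* Day 7, double mutant Day 7 and double mutant Day 10. All later values were below those at Day 0 (log2 fold change -1.34, standard error 0.26, limma adjusted p = 0.00634). *zmp-3* (C31B8.8) had 10.2 and 14.7, 15.1 and 35.1, and 2.39, 10.8 and 4.23 in the same order, where double mutant Day 7 overlapped the lowest Day 0 library (log2 fold change -1.87, standard error 0.42, limma adjusted p = 0.0109). Both went in the direction opposite to *zmp-1*, whose direction was set by the minimum. The matched transcript entries of *zmp-2* (H19M22.3) stayed between 0.593 and 1.33 FPKM, which is not the sum over all entries of H19M22.3. The fit used that sum, and it was not called later (log2 fold change -0.40, standard error 0.42, limma adjusted p = 0.446).

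Of the astacins, *nas-30* is listed under its symbol with a mean of 0.379 FPKM, under the minimum, and a second time as Y95B8A.2 with a mean of 3.15. The second had 1.61 and 2.23 FPKM in *spe-9* and 1.99 and 2.30004 in the double mutants at Day 0 against 3.41, 5.84 and 4.69 later, so that the groups did not overlap (log2 fold change 0.95, standard error 0.19, limma adjusted p = 0.00729).

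Of the trypsin-like genes, *try-14* (F48E3.4) had a mean of 357 FPKM, higher than any of the 24 proteases. Its FPKM was 254 and 241 in *spe-9* and 219 and 220.5 in the double mutants at Day 0 against 553, 606 and 406 later (log2 fold change 1.17, standard error 0.14, limma adjusted p = 0.00109), so each later library was above each at Day 0. *try-13* (F25E5.7) had a mean of 1.02 and was not called, and *adt-3*, *try-11*, *try-15*, *try-16* and *zmp-6* had means between 0.0678 and 0.717.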
